A study of Mus musculus with 17 samples.

Results

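Ribosomal protein genes encode the proteins of the large (Rpl) and small (Rps) subunits of the cytoplasmic ribosome. Here their promoters were followed by ATAC-seq, in which a transposase cuts accessible DNA, in 3 mouse cell types: naive B cells (nB), phycoerythrin-specific B cells of the germinal center (GCB) and CD138+ plasma cells of the bone marrow (BMPC). A region was a member when the gene whose start lies nearest to it matched a ribosomal protein name (Rpl or Rps with a number and an optional final a, x, y or l and number, or Rplp0, Rplp1 and Rplp2) and it lay at most 1000 bp from that start. The rule found 65 regions of 64 genes among the 66177 accessible regions of the table, of which 15011 lay at most 1000 bp from a start. The members comprised 37 regions of the large subunit, 22 of the small subunit, 3 of the stalk (Rplp0, Rplp1 and Rplp2) and 3 of paralogs (Rpl7l1, Rps27l and Rps4l). A further 128 regions were nearest to such genes but lay farther away. For 5 genes (Rpl22l1, Rpl3l, Rps21, Rps27a and Rps29) those were the only regions, and Rpl3, Rpl13a and Rpl39l were the nearest gene of no region.

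KO mice carried 1 Cre allele (cre/+) and were fl/fl at both Dnmt3a and Dnmt3b, and C mice were littermates without Cre that were likewise fl/fl at both genes. In KO mice both enzymes of de novo DNA methylation were thus deleted by Cre in the B cell lineage. Mice were 8 to 12 weeks old. GCB (B220+ Fas+ GL7+ PE+, hence binding phycoerythrin) and BMPC (CD138+) came 30 days after immunization with phycoerythrin in complete Freund's adjuvant. For nB (B220+ Fas- GL7-) the labels give no day, and the paper states that they came from unimmunized mice. By the paper, nB and GCB were sorted from lymph nodes (inguinal and periaortic) and BMPC from bone marrow. In comparisons with nB, cell type and immunization thus cannot be told apart. The 16 libraries were 3 C and 2 KO of nB, 2 C and 4 KO of GCB, and 3 C and 2 KO of BMPC. Each GCB library pooled 2 mice and every other library came from 1 mouse. All nB libraries were from males and all BMPC libraries from females, while GCB had 1 male and 1 female library in C and 1 male and 3 female libraries in KO, so that in BMPC against nB sex and cell type cannot be told apart. The labels do not say that pools of the same name share anything, and 1 further KO BMPC library in the labels has no column in the table and was not analysed here. Accessibility of promoters does not measure the deleted exons, so the genotype labels were not checked against the deletion.

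Every proliferating or secreting cell needs new ribosomes, and the ribosomal protein genes are among the most strongly transcribed in most cell types, from promoters that are constitutively open. Mature mRNAs of these genes begin with a terminal oligopyrimidine (TOP) tract, through which the growth regulator mTORC1 controls their translation. Germinal center B cells divide rapidly, and plasma cells devote most translation to antibody.

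The annotated starts of the members are shown for the 5 with the largest decrease in GCB of C mice, the 2 large subunit members that were called higher in GCB, and 2 further members that held the pyrimidine letters CTTTC near the start. Each line gives the 100 bases before and the 30 bases after the start in mm9, read 5′ to 3′ along the gene. Capitals mark CCGGAAG or its reverse complement (ETS family), AAGATGGC (YY1) on either strand, TATAAA on either strand, and CTTTC within 25 bases of the start on the sense strand.
Rps10 (chr17:27772158-27772287, minus strand): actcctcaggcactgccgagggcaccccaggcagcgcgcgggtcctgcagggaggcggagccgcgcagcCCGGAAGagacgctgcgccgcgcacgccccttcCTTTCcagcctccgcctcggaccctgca
Rpl19 (chr11:97887924-97888053, plus strand): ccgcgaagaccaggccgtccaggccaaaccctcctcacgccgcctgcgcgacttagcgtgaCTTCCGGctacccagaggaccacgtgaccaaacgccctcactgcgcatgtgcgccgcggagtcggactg
Rps28 (chr17:33961414-33961543, minus strand): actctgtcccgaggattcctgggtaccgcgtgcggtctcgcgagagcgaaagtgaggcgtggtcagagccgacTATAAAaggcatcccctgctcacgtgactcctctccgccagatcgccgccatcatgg
Rps18 (chr17:34092557-34092686, minus strand): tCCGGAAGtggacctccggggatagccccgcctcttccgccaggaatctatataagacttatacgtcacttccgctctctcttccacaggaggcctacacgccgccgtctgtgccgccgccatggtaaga
Rpl36 (chr17:56752718-56752847, plus strand): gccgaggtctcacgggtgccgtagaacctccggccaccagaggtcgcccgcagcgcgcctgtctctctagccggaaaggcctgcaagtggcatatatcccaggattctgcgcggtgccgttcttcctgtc
Rpl36a (chrX:131120093-131120222, plus strand): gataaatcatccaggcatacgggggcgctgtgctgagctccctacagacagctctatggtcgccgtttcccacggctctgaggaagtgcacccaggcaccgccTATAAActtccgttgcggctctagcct
Rpl14 (chr9:120480534-120480663, plus strand): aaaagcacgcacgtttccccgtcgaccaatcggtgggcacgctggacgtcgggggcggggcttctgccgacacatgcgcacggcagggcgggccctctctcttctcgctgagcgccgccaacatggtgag
Rps19 (chr7:25669633-25669762, plus strand): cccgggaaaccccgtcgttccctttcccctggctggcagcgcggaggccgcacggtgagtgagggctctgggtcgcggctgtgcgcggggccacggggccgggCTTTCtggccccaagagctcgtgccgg
Rplp2 (chr7:148633449-148633578, plus strand): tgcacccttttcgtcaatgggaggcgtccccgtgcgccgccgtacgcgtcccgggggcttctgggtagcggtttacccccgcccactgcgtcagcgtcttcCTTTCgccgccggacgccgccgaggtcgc
Of the 5 members that decreased most, Rps10, Rpl19 and Rps18 held the ETS letters, Rps10 also CTTTC, Rps28 held TATAAA before its start, and Rpl36 held none of the marked letters. Rpl36a held TATAAA just after its annotated start, and Rpl14 held none of them.

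In windows from 250 bases before to 50 after the start, 27 of 64 member starts (42.2%) held CCGGAAG on either strand, against 15.7% of the 13504 distinct starts with a region. CTTTC within 25 bases of the start on the sense strand, a proxy for the TOP tract, was found in 29.7% of member starts and 5.83% of all starts. AAGATGGC was found in 9.38% and 4.14%, TATAAA in 10.9% and 7.07%, and GCGCATGC (NRF1) in 6.25% and 4.47%. GGGCGG (Sp1) was less frequent in member starts (51.6% against 62.3%), as was CCAAT (28.1% against 36.2%). CACGTG (E-box) was about equally frequent (9.38% against 9.63%). All letters but CTTTC were counted on both strands. No motif in this list contains another, although CCGGAAG and AAGATGGC can overlap in AAG, and a match describes letters and no binding.

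Accessibility is given in RPPM, the reads in a region divided by the reads in all regions of the library and multiplied by 1000000. The GCB libraries stood apart in depth. They held 907959 to 2280954 reads in regions, against 4104875 to 6079018 in nB and 5357687 to 8232313 in BMPC. Regions of chrM took 7.43% to 10.1% of these reads in GCB and 2.57% to 4.59% in the other cell types, and regions within 1000 bp of a start took 54.0% to 57.55% in GCB, 57.7% to 58.4% in nB and 57.9% to 60.4% in BMPC. These differences ran with the cell type in both genotypes, so their part in any GCB result was not tested beyond the other scalings given with the results. The members together held 2201 to 6012 reads in a GCB library and 15001 to 29045 in the others. Of 10 regions at naive B genes, 7 were lower in GCB than in nB of C mice, and 9 were lower and 1 higher in BMPC. Of 6 regions at germinal center genes 4 were higher and 1 lower in GCB of C mice, and 2 were higher and 1 lower in KO. Of 8 at plasma cell genes 5 were higher and 3 lower in BMPC of C mice. Of the markers of other cells, the T cell genes Cd3e, Cd3g, Cd4 and Cd8a had no region at their start, Lck had 3 with 37.8 to 45.6 RPPM in all in nB, 19.6 to 31.9 in GCB and 33.6 to 36.3 in BMPC, the single myeloid region (Itgam) lay at 0.56 to 5.31 RPPM, and 2 erythroid regions (Klf1 and Epor) summed to 34.1 to 42.2 RPPM in GCB, 42.9 to 60.5 in nB and 63.9 to 74.7 in BMPC.

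The member regions were wide and strong. Their median width was 1030 bp, against 937 bp for the other regions within 1000 bp of a start, and their median GC content was 57.7%, against 58.5%. Over the 16 libraries the members had a median of 45.9 RPPM per kb, with an interquartile range of 39.2 to 54.2, against a median of 29.7 for the other start regions (15.3 to 44.8). All but 1 region overlapped the annotated start itself, all 65 overlapped an exon and a promoter in the annotation of the table, and none a 3′ UTR.

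Between members, levels per kb were highest at Rpl41, which encodes the shortest ribosomal protein (84.0 RPPM per kb), Rplp2 (71.7), Rpl27 (66.2), Rps23 (66.0) and Rps19 (63.6). They were lowest at Rps4l (5.06), followed by Rpl6 (28.0), Rps4x (28.0), the upstream region of Rpl35 (28.4) and Rps10 (28.6). Rps4l lay inside the transcript of Tmtc1 and had 0.731 to 1.32 RPPM in nB, 1.91 to 5.51 in GCB and 0.156 to 2.92 in BMPC, while 3 reads amounted to 1.32 to 3.30 RPPM in GCB. Rpl35 was the single gene with more than 1 member, a region over its start at 28.6 to 46.4 RPPM and one of 189 bp, at -452 bp from it, at 2.80 to 7.71 RPPM. The upstream region was the only member away from a start, and the nearest regions beyond the limit lay 1322 bp from Rps20 (5.01 RPPM on average) and -1399 bp from Rps27a (11.6 RPPM).

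As a sum, the 65 regions took a smaller share of the reads in GCB than in nB or BMPC of either genotype. Their share of all reads in regions was 0.365%, 0.356% and 0.369% in the C nB libraries and 0.363% and 0.349% in KO nB. It was 0.25% and 0.261% in C GCB, and 0.242%, 0.242%, 0.264% and 0.242% in KO GCB. It was 0.370%, 0.378% and 0.372% in C BMPC, and 0.353% and 0.344% in KO BMPC. Every GCB library lay below every library of the other cell types.

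In C mice the mean share was 0.255% ± 0.00755 (SD, n = 2) in GCB and 0.364% ± 0.00652 (SD, n = 3) in nB, a ratio of 0.702. The two-sided exact permutation test over libraries gave p = 0.1, adjusted p = 0.15 over 6 tests, and 0.1 is the smallest p that 2 against 3 libraries allow. The share in C BMPC was 0.373% ± 0.00407 (SD, n = 3), 1.46 times that in C GCB (exact permutation p = 0.1, adjusted 0.15, again the smallest possible). It was 1.03 times that in C nB, without overlap (exact permutation p = 0.1, adjusted 0.15, the smallest that 3 against 3 allow). With the totals of all other start regions as the denominator, the last ratio fell below 1 (log2 ratio -0.01), while the GCB share stayed below both. In KO mice the ratio of GCB to nB was 0.694 and that of BMPC to GCB 1.41.

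**Figure D1:**
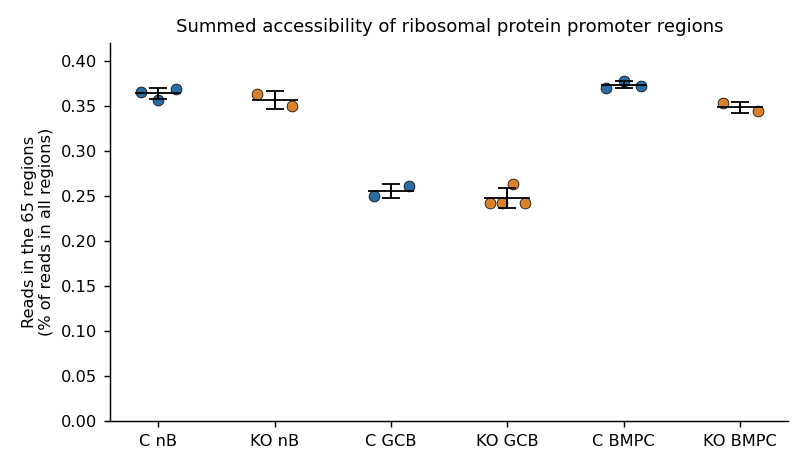
Reads in the 65 ribosomal protein promoter regions as a percent of all reads in regions (vertical axis), for each library (points) of the 6 groups, blue for C and orange for KO, with the group mean and SD (black bars). The 6 GCB libraries lie between 0.242% and 0.264%, and the other 10 between 0.344% and 0.378%.

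Region by region, the decrease in GCB involved most members. Calls are by limma on log2(RPPM + 1) over all 66177 regions, with the adjusted p limited to 0.05, and all changes below are differences on that log2 scale. In C mice, 50 of 65 members were lower in GCB than in nB and 1 was higher. Over all regions 43.3% were called in either direction and 20.7% were lower, and among the other 14946 start regions 33% were lower and 17.3% higher. The median change of the members was -0.57, against -0.17 for the other start regions and 0.05 for all regions. In KO mice, 52 members were lower and 3 higher, with 49.6% of all regions called and 21.5% lower, and the median change was -0.61, against -0.19 for the other start regions and 0.12 for all. At the limit used in the study, an adjusted p of at most 0.01 and at least a 2-fold change, 7 members were lower and 0 higher in each genotype, while 22.7% (C) and 26.3% (KO) of all regions passed. With the male GCB library of each genotype alone, as the nB libraries were all male, 48 members were lower and 2 higher in C and 50 and 2 in KO. Each of these GCB groups then holds 1 library, which is assumed to vary like those of the other groups. Bulk libraries cannot tell a smaller opening in every cell from closed promoters in some cells.

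The 48 members lower in both genotypes held genes of each class. In C mice 27 of 37 large subunit regions (median change -0.57), 18 of 22 small subunit regions (median -0.70) and all 3 stalk regions (median -0.44) were lower, and in KO mice 27, 20 and 3 were. The level per kb of the large subunit regions had a median of 51.4 RPPM in C nB, 32.5 in C GCB and 52.2 in C BMPC, and that of the small subunit regions 55.5, 37.5 and 55.2. Called or not, 61 of 65 members had a change below 0 in C and 62 in KO. At 47 members (72.3%) every GCB library of both genotypes lay below every nB library, which held for 18.0% of all regions and 31.8% of the other start regions. At 43 of these every GCB library also lay below every BMPC library (66.2%, against 7.67% of all regions and 23.3% of the other start regions).

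Other start regions of like strength were also lower in GCB, though by less. Among regions with a mean of 30 to 60 RPPM, which include 45 members, the median change in C mice was -0.66 for members and -0.32 for the other 4425 start regions. In KO mice it was -0.70 and -0.38. Above 60 RPPM the 13 members and 2721 other regions had medians of -0.29 and -0.20 in C and of -0.37 and -0.30 in KO. Quantile normalization, which forces the libraries to 1 distribution, brought the count in GCB to 36 lower and 3 higher in C (median -0.38, other start regions -0.07) and to 33 lower and 2 higher in KO (median -0.35, other start regions -0.09).

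**Figure D2:**
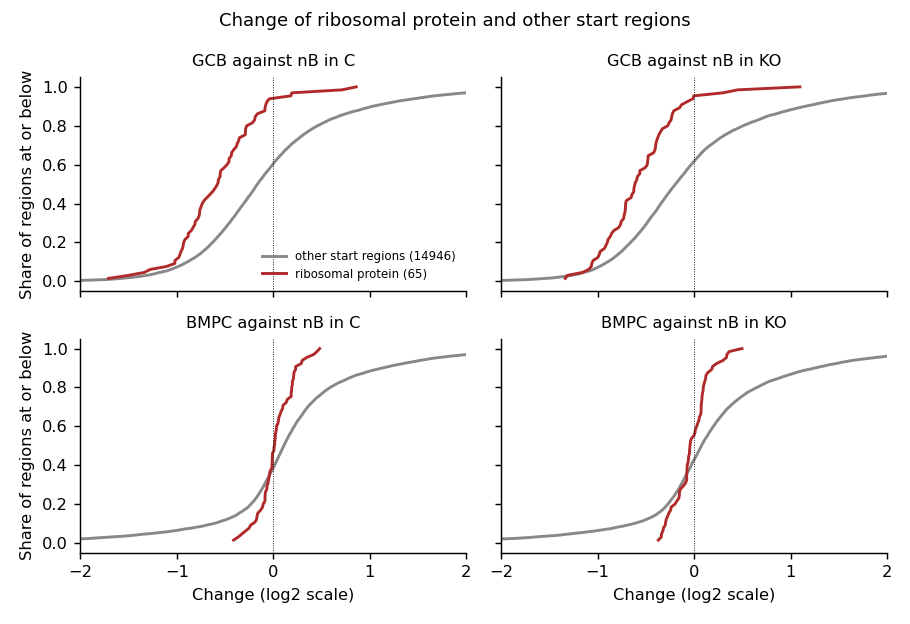
Cumulative share of regions (vertical axis) at or below a given change on the log2(RPPM + 1) scale (horizontal axis), for the 65 ribosomal protein regions (red) and the 14946 other start regions (grey), in 4 comparisons. In GCB the red curves lie to the left of the grey ones, with medians of -0.57 and -0.61 against -0.17 and -0.19, while in BMPC they are steeper and centered near 0.

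**Figure D3:**
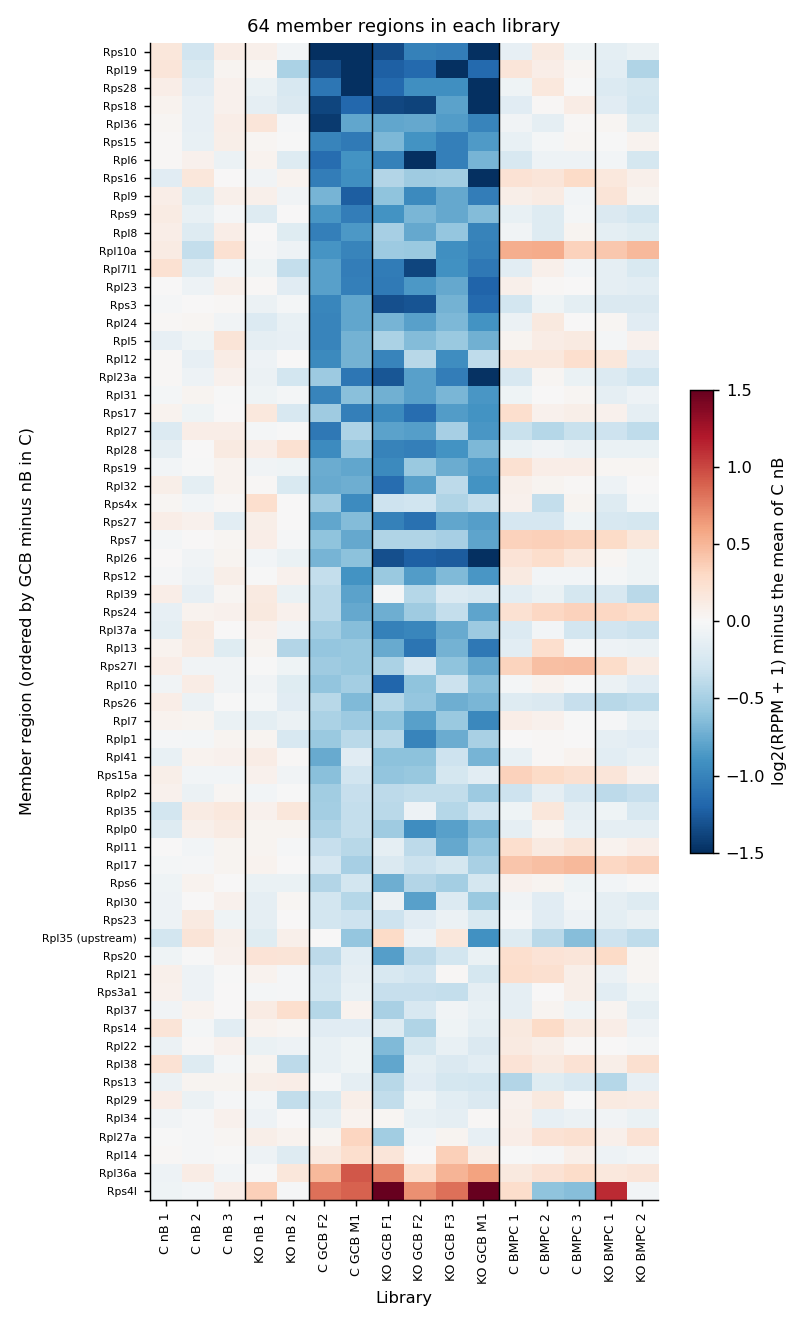
Accessibility of 64 member regions (rows, ordered by the change between GCB and nB in C mice) in each library (columns), as log2(RPPM + 1) minus the mean of the C nB libraries, with colors ending at 1.5 in either direction. The 6 GCB columns are blue in most rows, and the BMPC columns are close to nB apart from a few red rows such as Rpl10a and Rpl17.

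The largest decreases were at Rps10, Rpl19, Rps28, Rps18 and Rpl36. Rps10, a protein of the head of the small subunit, had 46.0, 33.3 and 44.1 RPPM in C nB, 43.1 and 39.8 in KO nB, 11.9 and 11.7 in C GCB, and 15.4, 19.7, 19.3 and 11.2 in KO GCB. In BMPC it had 37.5, 44.9 and 39.1 RPPM in C and 36.7 and 38.1 in KO. The change in GCB was -1.71 ± 0.19 (SE, adjusted p = 4.02e-08) in C and -1.32 ± 0.18 (adjusted p = 9.54e-07) in KO, and no GCB library reached any nB library.

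Rpl19, of the large subunit, had 59.9, 45.0 and 54.5 RPPM in C nB and 53.8 and 37.6 in KO nB. In GCB it had 20.2 and 15.9 in C and 22.0, 22.9, 17.5 and 23.1 in KO, all below nB. The change was -1.50 ± 0.17 (adjusted p = 4.62e-08) in C and -1.05 ± 0.16 (adjusted p = 4.91e-06) in KO. Rps18, also of the small subunit head, went from 69.2, 61.4 and 70.0 RPPM in C nB to 25.1 and 29.0 in C GCB, and from 60.9 and 57.5 in KO nB to 25.3, 24.8, 37.7 and 23.1 in KO GCB. Its changes were -1.28 (adjusted p = 2.05e-07) and -1.09 (adjusted p = 8.51e-07). Rps28 had 38.5, 31.6 and 37.4 RPPM in C nB and 16.3 and 11.2 in C GCB, and Rpl36 had 39.2, 35.2 and 41.3 in C nB and 13.6 and 22.0 in C GCB. Rps28 and Rpl36 changed by -1.34 and -1.11 in C and by -0.998 and -0.93 in KO, without overlap between libraries. In KO mice the leading members also included Rpl26, Rpl6 and Rpl28, at -1.34, -1.16 and -1.07.

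Members with known roles outside the ribosome or in disease were spread over the whole range. Rpl5 and Rpl11, which with the 5S rRNA can bind Mdm2 and so stabilize p53, changed by -0.85 and -0.38 in C and by -0.48 in KO for both. Rps19, the gene most often mutated in Diamond-Blackfan anemia, had 89.6, 92.3 and 95.7 RPPM in C nB and 55.0 and 53.4 in C GCB, and 89.0 and 88.8 in KO nB and 47.4, 62.4, 54.8 and 51.0 in KO GCB. Its changes were -0.76 ± 0.11 (adjusted p = 1.9e-06) in C and -0.72 ± 0.10 (adjusted p = 1.66e-06) in KO. Rps3, which lies at the mRNA entry channel, changed by -0.88 and -1.06. Rps6, the target of S6 kinase, changed by -0.36 and -0.39, and Rpl10, added late in the assembly of the large subunit, by -0.55 and -0.56, all called. Over the alternatives run, the Rpl11 call was lost in 9 of 29 in C, the fits without any 1 of the 5 C nB and GCB libraries among them, and in 2 in KO (quantile normalization and without KO nB library 1). The Rps6 call was lost in 5 of 29 in C, the fits without C nB library 2 or C GCB library F2 among them, and in 3 in KO. The KO calls of Rpl5 and Rpl10 were lost with quantile normalization. Rps14, whose loss underlies the anemia of the 5q- syndrome, did not pass the test in C (-0.17, adjusted p = 0.286) or in KO (-0.26, adjusted p = 0.0651). Its GCB libraries lay below nB without overlap within each genotype. This held for 30.6% (C) and 24.7% (KO) of all regions, and for 43.9% and 41.1% of the other start regions. Rpl22 (-0.09 and -0.23), needed for T cell development, and Rpl38 (-0.09 and -0.15), linked to translation of Hox mRNAs, did not pass in either.

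The stalk proteins recruit elongation factors to the ribosome, Rplp0 as the anchor and Rplp1 and Rplp2 as dimers bound to it. Rplp2 had 88.2, 79.3 and 86.0 RPPM in C nB, 58.5 and 66.0 in C GCB and 67.6, 76.6 and 70.7 in C BMPC. Its change in GCB was -0.44 ± 0.10 (adjusted p = 0.0014) in C and -0.40 ± 0.10 (adjusted p = 0.00169) in KO. Rplp0 changed by -0.41 and -0.78, and Rplp1 by -0.48 and -0.56. The C call of Rplp0 was lost in 5 of 29 alternatives, among them the fits without C nB library 2 or 3 or C GCB library F2. The calls of Rplp1 were lost with quantile normalization, in C without C GCB library F2 and in KO without KO nB library 1. Quantile normalization also ended the KO call of Rplp2. Of the paralogs, Rpl7l1 (-0.93 and -0.89) and Rps27l (-0.55 and -0.49), a p53 target gene, were lower in both genotypes, and both calls of Rps27l were lost with quantile normalization. Rps4l was called higher in KO alone (1.09, adjusted p = 0.023), from the levels near 3 reads given above, and the call was lost in 8 of 29 alternatives, among them a pseudocount of 0.1 RPPM and the fits without KO GCB library F1 or M1 or KO nB library 1 or 2.

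Rpl36a, one of the 4 members on chrX, was the only member called higher in both genotypes. It had 32.4, 37.1 and 33.1 RPPM in C nB and 33.9 and 38.6 in KO nB, and 48.4 and 66.0 in C GCB and 58.4, 40.7, 49.1 and 52.4 in KO GCB. All GCB libraries lay above all nB libraries, the male ones at 66.0 (C) and 52.4 (KO) included, which held for 21.1% of all regions. The changes were 0.71 ± 0.15 (adjusted p = 0.00033) in C and 0.45 ± 0.14 (adjusted p = 0.00966) in KO. The KO call was lost with TMM scaling, by DESeq2 and without KO nB library 1. The other members on chrX did not share this direction: Rpl10, Rps4x and Rpl39 changed by -0.55, -0.74 and -0.61 in C, all called, and by -0.56, -0.48 and -0.24 in KO, where Rpl39 did not pass (adjusted p = 0.143). The C call of Rpl39 was lost without C GCB library M1, and the KO call of Rps4x without KO nB library 1 or with quantile normalization. Rpl14 had 51.9, 50.5 and 51.2 RPPM in C nB and 56.3 and 60.9 in C GCB, a change of 0.19 (adjusted p = 0.198). In KO it went from 48.5 and 44.5 to 58.4, 51.6, 65.8 and 54.5, a change of 0.30 (adjusted p = 0.0293). That call was lost in 9 of 29 alternatives, among them both edgeR tests, DESeq2, the male GCB library alone and the fits without KO nB library 1 or 2 or KO GCB library F3.

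**Figure D4:**
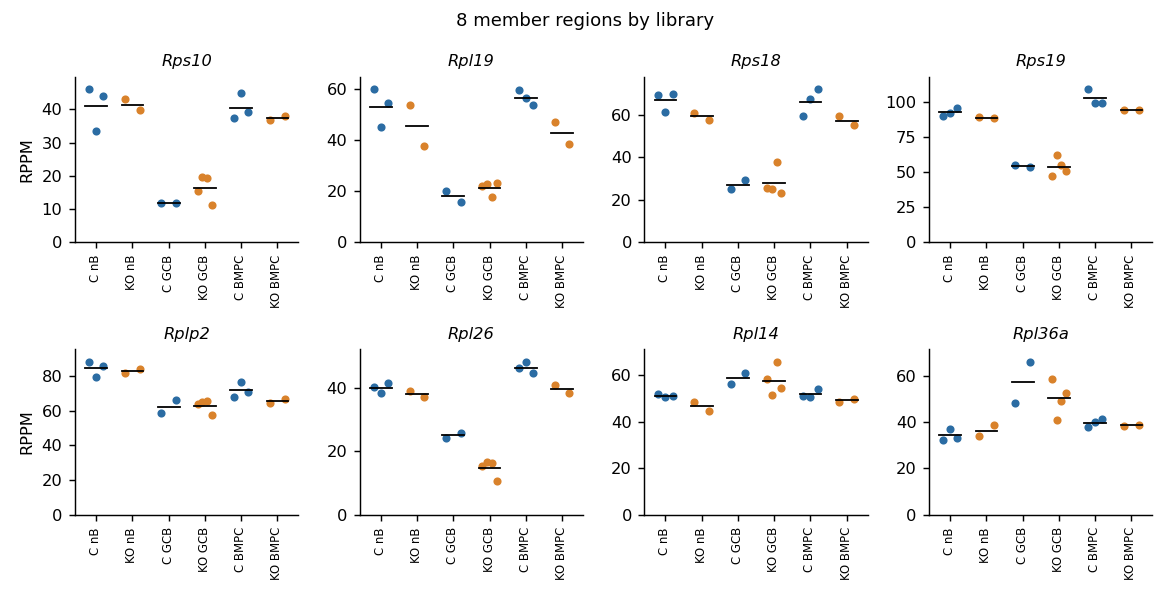
RPPM (vertical axes, from 0) of 8 members in each library (points, blue for C and orange for KO) of the 6 groups, with group means (black bars). Rps10, Rpl19, Rps18, Rps19, Rplp2 and Rpl26 are lower in GCB, Rpl36a is higher, and Rpl14 differs by 0.19 (C) and 0.30 (KO) on the log2 scale.

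Members that decreased most in C also did so in KO. The changes correlated across the 65 regions (Pearson r = 0.875, Spearman rho = 0.847, and 0.852 and 0.836 without Rps4l and the upstream Rpl35 region), which describes regions measured in the same libraries and not independent replicates. Narrower members tended to decrease more by rank (rho between width and change 0.345 in C and 0.306 in KO over 65 regions). Pearson r was 0.13 and 0.039. Without Rps4l and the upstream Rpl35 region, rho was 0.45 and 0.427 and r was 0.342 and 0.322 over 63 regions. GC content was weakly related to the change (rho -0.153 and -0.14 over those 63 regions). The 27 members with CCGGAAG at the start had a median change of -0.48 in C and -0.48 in KO, with 20 and 21 of them lower, and the 37 without it had -0.72 and -0.71, with 30 and 31 lower. With and without CTTTC near the start the medians were -0.57 (19 members) and -0.59 (45 members) in C, and -0.48 and -0.65 in KO.

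**Figure D5:**
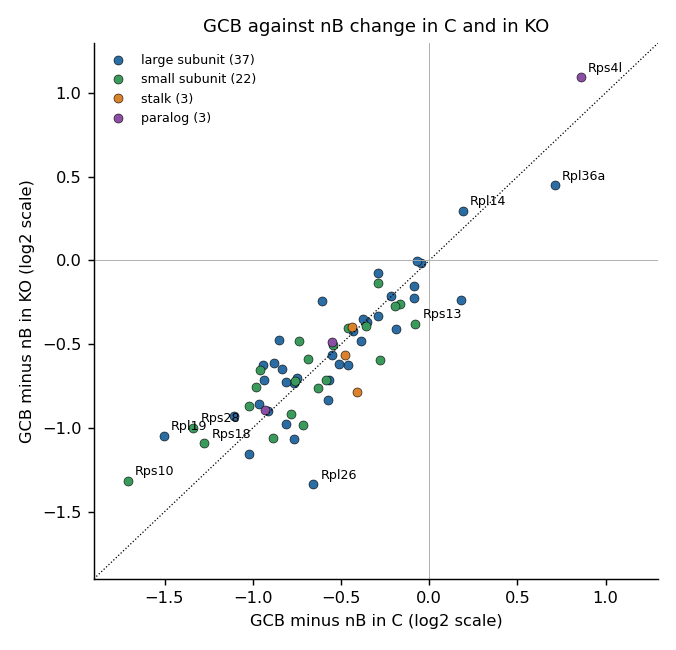
Change between GCB and nB on the log2(RPPM + 1) scale in C (horizontal axis) and in KO (vertical axis) for each member, colored by class, with the line of equal change (dotted). The points follow the line, from Rps10 at -1.71 and -1.32 to Rpl36a at 0.71 and 0.45, and Rpl26 lies below it at -0.66 and -1.34.

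Of the genes that make and assist ribosomes, 4 lists were examined beside the share of the other start regions called lower in GCB, which was 33% in C and 37.7% in KO. Of 16 regions at translation factors and other TOP mRNAs, 10 were lower (62.5%) and 0 higher in GCB of C mice (median -0.46), and 11 (68.8%) and 0 in KO (median -0.43). Of 36 regions at ribosome biogenesis genes, 20 were lower (55.6%) and 2 higher in C (median -0.43), and 22 (61.1%) and 1 in KO (median -0.46). Of 56 regions at mitochondrial ribosomal protein genes, 25 were lower in each genotype (44.6%) and 3 (C) and 5 (KO) were higher (medians -0.33 and -0.35). At 12 regions of the import carriers of ribosomal proteins the calls were 2 lower and 2 higher in C and 2 lower and 4 higher in KO (medians 0.06 and -0.03). None of these lists was tested as a list, and the other start regions had medians of -0.17 and -0.19.

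In BMPC the members lay near their level in nB. In C mice 6 were higher and 4 lower in BMPC than in nB, against 56.0% of all regions called, and the median change was 0.01 (0.11 for the other start regions). In KO mice 1 was higher and 2 lower, against 50.2% of all regions, and the median was -0.04 (0.07 for the other start regions). No member passed the 2-fold limit. These counts moved with the method, from 4 to 18 calls in C and from 0 to 15 in KO over the alternatives.

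Rpl10a, of the large subunit, was the member with the largest increase in both genotypes. It had 42.6, 30.3 and 45.8 RPPM in C nB and 57.2, 57.8 and 49.7 in C BMPC, and 38.5 and 37.0 in KO nB and 52.0 and 55.2 in KO BMPC. The libraries did not overlap, which held in this direction for 34.7% of all regions in C and 43.4% in KO. The changes were 0.48 ± 0.15 (adjusted p = 0.00774) and 0.49 ± 0.18 (adjusted p = 0.0261). Both calls were lost when the GC trend was removed, the C call without C nB library 2, and the KO call without any 1 of the 4 KO nB and BMPC libraries. Rpl17, at the exit of the peptide tunnel, had 50.2, 50.5 and 52.9 RPPM in C nB and 68.7, 70.2 and 72.2 in C BMPC, a change of 0.45 ± 0.11 (adjusted p = 0.000599). In KO it went from 53.1 and 51.4 to 63.7 and 65.1, a change of 0.30 that did not pass (adjusted p = 0.0576). Rps27l, Rps7 and Rps15a rose in C by 0.42, 0.34 and 0.29, and had 0.23, 0.19 and 0.11 in KO (adjusted p = 0.185, 0.263 and 0.566). The calls of Rps7 and Rps15a were lost when the GC trend was removed, and that of Rps15a in 11 of 28 alternatives.

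The members lower in BMPC of C mice were Rpl27 (-0.36), Rps13 (-0.29), Rps26 (-0.25) and Rplp2 (-0.24). Rps13 had 59.9, 65.6 and 65.7 RPPM in C nB and 46.6, 56.0 and 53.6 in C BMPC, and 67.9 and 68.5 in KO nB and 47.1 and 58.4 in KO BMPC. Rps13 (-0.37, adjusted p = 0.0209) and Rplp2 (-0.34, adjusted p = 0.0148) were also lower in KO. Each of these 4 calls in C was lost without at least 1 of the C nB or BMPC libraries, C nB library 3 among them for all 4. The C calls of Rps13, Rps26 and Rplp2 were also lost with TMM scaling, and that of Rps26 in 10 of 28 alternatives. The KO call of Rps13 was lost without KO nB library 1 or 2 or KO BMPC library 1, and that of Rplp2 without KO nB library 2 or KO BMPC library 1.

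Set directly against GCB, 50 members were higher and 2 lower in BMPC of C mice (51.2% of all regions called), with a median of 0.59, against 0.28 for the other start regions. In KO mice 48 were higher and 1 lower (54.3% of all regions called), with a median of 0.56, against 0.30. At the 2-fold limit 10 (C) and 5 (KO) members were higher and 0 lower, with 30.4% and 32.0% of all regions past it. With only female GCB libraries, as the BMPC libraries were all female, 45 members were higher and 0 lower in C and 49 and 1 in KO. In C this leaves 1 GCB library, again assumed to vary like the other groups. These contrasts share the GCB libraries with those against nB and are not independent of them. Rps10, Rpl19, Rpl10a, Rps28 and Rps18 had the largest increase in C, and Rpl26, Rpl10a, Rps10, Rpl6 and Rps18 in KO.

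Few of these promoters were called between the genotypes. In nB, 0 of 65 members were called between KO and C by limma, 0 had an unadjusted p under 0.05, and 0.0% of all regions were called. edgeR's quasi-likelihood and likelihood ratio tests and DESeq2 called 0 members. The median change was -0.04, and the summed share was 0.356% ± 0.00992 (SD, n = 2) in KO and 0.364% ± 0.00652 (SD, n = 3) in C (exact permutation p = 0.4, adjusted 0.4).

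In GCB, 1 member, Rpl26, was lower in KO, against 0.216% of all regions called. Rpl26 lies at the exit of the peptide tunnel and can also bind p53 mRNA. It had 24.2 and 25.8 RPPM in C GCB and 15.4, 16.5, 16.2 and 10.5 in KO GCB. These did not overlap, which held in this direction for 5.52% of all regions. The change was -0.75 ± 0.15 (adjusted p = 0.0368). In nB its levels were 40.2, 38.4 and 41.3 in C and 38.8 and 37.2 in KO, and in BMPC 46.2, 48.2 and 44.7 in C and 40.7 and 38.3 in KO. The call held in 15 of 29 alternatives, and was lost by both edgeR tests, DESeq2, the fit of the compared groups alone and the fits without any 1 of 10 libraries, both C GCB libraries among them. The summed share was 0.247% ± 0.0109 (SD, n = 4) in KO and 0.255% ± 0.00755 (SD, n = 2) in C (exact permutation p = 0.4, adjusted 0.4).

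In BMPC most members lay slightly lower in KO than in C, without passing the test. By limma 0 were called (0.772% of all regions were), and 2 had an unadjusted p under 0.05. DESeq2 called 0, the quasi-likelihood test of edgeR 1 and its likelihood ratio test 3, of which 2 were lower and 1 higher in KO. These tools also called more of all regions than limma did, by the counts given below. The change was below 0 at 58 of 65 members, with a median of -0.10, against 8970 of the 14946 other start regions, with a median of -0.04. Other start regions of like strength were also lower more often than that. At a mean of 30 to 60 RPPM, 40 of 45 members and 67.1% of the other start regions had a change below 0. The medians were -0.10 and -0.05. Above 60 RPPM, 13 of 13 members and 77.6% of the other start regions did, with medians of -0.10 and -0.06. At 27 members both KO libraries lay below all 3 C libraries (13.8% of all regions and 21.6% of the other start regions), and at 0 they lay above. The summed share was 0.348% ± 0.00633 (SD, n = 2) in KO and 0.373% ± 0.00407 (SD, n = 3) in C, a ratio of 0.933 without overlap (exact permutation p = 0.1, the smallest possible, adjusted 0.15). The largest decrease was at Rpl19, with 59.8, 56.6 and 53.7 RPPM in C and 47.1 and 38.4 in KO, a change of -0.40 ± 0.17 (adjusted p = 0.373), which both edgeR tests and the fit of the compared groups alone called.

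The genotype effect was not called as different between cell types at any member. By limma, 0 of 65 were called for GCB against nB, BMPC against nB or BMPC against GCB, with 0.0%, 0.00453% and 0.0151% of all regions called, and edgeR and DESeq2 called 0 members as well. At an unadjusted p under 0.05 there were 3, 0 and 3 members. For Rpl26 the difference between the genotype effects in GCB and nB was -0.68 ± 0.22 (adjusted p = 0.726).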

How the data were processed

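ATAC-seq libraries of sorted cells were sequenced from both ends, and the authors aligned the reads to mm9 with Bowtie, called accessible regions per library with MACS2 and took the union over libraries as 1 table. The deposited values are RPM with reads in regions as the total (RPPM), 1 column per library, and the submitters removed 1 KO BMPC library for an aberrant number of reads in peaks. All values were whole multiples of 1 read within 0.01 reads (100% of values), so whole reads were recovered for the count tools. The authors' columns of log2 fold change, log CPM, likelihood ratio, p-value and FDR for 9 comparisons, made with edgeR, were not used.

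Groups were taken from the labels. All 66177 regions were fitted without a filter, as log2(RPPM + 1), with limma 3.58.1 (R 4.3.3) and a mean-variance trend, 1 mean for each of the 6 groups, and p-values were adjusted over all regions by the Benjamini-Hochberg method. Unlike the study's own test, this takes no count model, because the deposited values are normalized. The summed share was compared by exact permutation tests over libraries (scipy 1.17.1). Alternatives were other pseudocounts, a filter, 3 other scalings, totals without chrM, chrX and chrY, other member sets, the compared groups alone, each library left out, and, on the recovered reads, DESeq2 1.42.0 and edgeR 4.0.16 (quasi-likelihood or likelihood ratio test). A correction for GC content and the GCB libraries of 1 sex were added after the data were seen. The fit was tested on simulated reads, with 200 regions changed by known folds for GCB against nB of C mice. It recovered 47% of these, and 81% of those changed 2-fold in either direction, and called 7 unchanged regions. Most of the smaller changes were missed. The simulation gave all groups the same spread between libraries beyond that of read counts. It changed only 200 of 66177 regions, whereas 43.3% were called for GCB against nB of C mice. Its rates therefore do not carry over to the data, and a member without a call may still differ. The comparisons between genotypes were not simulated.

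The members and lists were chosen with earlier results of these data known. The genes named were a fixed set of known members, the 5 called members with the largest increase and decrease in each comparison, the 5 highest and lowest per kb, and genes with more than 1 member. Rps20, Rps21 and Rps29 are named only for their position. Some items are not reported here, 1 member by name among them, which the counts include. Sequences came from the mm9 genome at the starts annotated in the table. The tests by limma set each change against a spread between libraries estimated for the region over all 6 groups together. GCB libraries were less alike than the others. Over all regions, log2 values of libraries of 1 group correlated at 0.870 to 0.935 in GCB and at 0.973 to 0.980 in nB and BMPC. Comparisons without GCB thus also use the spread of GCB, except in fits of the compared groups alone. Depth limits regions near 3 reads, which is 0.364 to 3.30 RPPM.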

Additional observations from a re-analysis of the deposited data

Results flagged for a closer look

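In the group of 4 KO GCB libraries, 1 library stood far from the others, by Dixon's test at 95%, in 5 of 39 groups of values tested, and chance flags about 1 in 20. The summed share of reads in the ribosomal protein regions was 0.264% in library F3 and 0.242% in each of the others. Library F3 was also high at Rps18, with 37.7 RPPM against 23.1 to 25.3 in the others, and at Rpl27, with 46.5 RPPM against 35.7 to 37.4. Library F1, the shallowest, was low at Rpl38, with 26.4 RPPM against 39.5 to 41.4. Library M1 was low at Rps7, with 28.7 RPPM against 35.1 to 36.3. Rps18, Rpl27 and Rps7 stayed below every KO nB library in all 4.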

How the results depend on the processing

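The members were lower in GCB than in nB under every alternative run, with 36 to 51 called lower in C and 33 to 57 in KO (40 to 50 and 40 to 56 with 1 library left out). Where this left a group with 1 library, that library was assumed to vary like those of the other groups. The smallest total in KO was 35 calls, with quantile normalization. The log2 ratio of the summed share in GCB against nB of C mice, -0.51, became -0.45 without chrM, chrX and chrY and -0.46 with the totals of other promoters. For BMPC against GCB it was 0.55, and 0.60 with TMM scaling, 0.47 without chrM, chrX and chrY, 0.45 with other promoters, and 0.52 to 0.58 with 1 library left out. For BMPC against nB it was 0.04, and 0.0597 with TMM and -0.0099 with other promoters. For KO against C it became -0.11 in GCB with TMM (from -0.05), and -0.17 with TMM and -0.0586 with other promoters in BMPC (from -0.10).

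Calls of BMPC against nB depended most on the method. In C there were 10, and 18 with the compared groups only, 6 with the GC trend removed, and 4 to 11 with 1 library left out, the 4 without C nB library 3. In KO there were 3, and 5 with TMM, 15 with the compared groups only, 10 with the GC trend removed, 12 and 13 by the quasi-likelihood and likelihood ratio tests, 9 by DESeq2, and 0 to 8 with 1 library left out, 0 without KO nB library 2 or KO BMPC library 1 and 8 without KO GCB library F1. For KO against C in GCB the single call became 0 with the compared groups only, both edgeR tests and DESeq2, and 0 to 1 with 1 library left out. In BMPC the 0 calls became 1 with the compared groups only and by the quasi-likelihood test, and 3 by the likelihood ratio test. The cause of these changes was not tested. Over all regions, the tools differed most for KO against C in BMPC, with 511 calls by limma, 4081 and 5497 by the edgeR tests and 1532 by DESeq2. With pools F2 and M1 as a replicate block, 2 members were lower in KO GCB (Rpl26 and Rpl7, the latter named after its value was seen), and same-named pools deviated together only weakly (r = 0.0363 and 0.0638). For the single genes named, 9360 of the alternative values kept their side of the threshold, 260 lost a call, 92 gained one, 18 moved without a call, and 0 reversed.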

Other observations

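The 128 regions nearest to a ribosomal protein gene but over 1000 bp from its start were weaker than the promoters, with a median of 5.54 RPPM against 47.6, and lay at a median distance of 15540 bp. In GCB of C mice 14 were higher and 32 lower than in nB, with a median change of -0.12, against 0.15 for all regions over 1000 bp from a start, of which 41.2% were called. In KO mice 22 were higher and 34 lower, with a median of -0.13, against 0.26 for all regions over 1000 bp from a start, of which 47.4% were called. Between KO and C, limma called 0 of them in each cell type.

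The 6 members on chr17 (Rps10, Rpl10a, Rps28, Rps18, Rpl7l1 and Rpl36) were all lower in GCB of C mice, by a median of -1.19 and within -1.71 to -0.93, and by a median of -0.96 in KO. The 777 other start regions on chr17 had medians of -0.33 and -0.36. The 6 members on chr11 had a median of -0.79 in C, and the 1284 other start regions there -0.48. This grouping by chromosome was noticed after the values were seen and was not tested.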
